A study of Drosophila melanogaster with 42 samples.

Results

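Ring glands that expressed a constitutively active Ras, RasV12, were compared with control glands 8 h before puparium formation. The 6 arrays were chosen by the time and cross in their source descriptions, 3 of RasV12 and 3 of control glands, out of 42 arrays in the series. All 16637 transcripts of the array were measured and tested. RasV12 glands came from phantom-Gal4/RasV12 larvae, and control glands from the cross of the same driver to w1118 (phantom-Gal4/w1118), so both groups carried phantom-Gal4. The phantom (phm22) driver acts in the ecdysone-producing cells of the gland, while the whole dissected gland was measured. The labels call the 3 arrays of a group biological replicates.

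The labels do not place the groups at one stage without doubt. For the 6 arrays the sample titles give 18 h and a partly clear gut, while the source descriptions give 8 h. The source descriptions were used. For the RasV12 and control arrays described as 18 h, the titles give 18 h and a blue gut. The RasV12 glands were labelled as late in the third instar with the phenotype developmental acceleration, and the control glands as mid in the third instar and normal. Any effect of this difference in labelled stage and that of RasV12 cannot be told apart. The series also holds RasV12 and control glands at 18 h, torso-RNAi glands of the same driver (phantom-Gal4/Torso-RNAi) at both times, and glands and whole larvae of w1118 through the third instar. All larvae were kept dark on yeast paste, and RNA was hybridised to one-colour arrays.

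The larval ring gland of Drosophila fuses the prothoracic gland, which makes ecdysone, with the corpus allatum, which makes juvenile hormone, and the corpora cardiaca. The brain hormone PTTH binds the receptor tyrosine kinase Torso on prothoracic gland cells and acts through Ras, Raf and the kinase ERK to raise ecdysone output, which sets the time of puparium formation. RasV12 is locked in its active, GTP-bound form and signals without the receptor. The comparison asks which transcripts differ when this pathway is kept on in the gland.

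The deposited intensities are linear, were made with RMA, and are given here as deposited; changes are log2 RasV12 minus control with limma's standard error (SE). The number of arrays limits the precision. Array medians were 352.1, 356.9 and 356.8 in RasV12 glands, and 393.6, 386.9 and 379.5 in control glands. Arrays correlated across transcripts with r between 0.9875 and 0.9892 among RasV12 glands and between 0.9929 and 0.9934 among control glands. Between a RasV12 and a control array r lay between 0.9641 and 0.9725. No 8 h array stood apart in these values, and 0 columns were identical. The transcript identifiers were paired with gene names for few transcripts, as described with those genes, and Ras and Torso were not among them, so the transgene's expression was not checked here.

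The gland label was checked instead with transcripts that separated glands from whole larvae in wild-type w1118 animals. Each passed an adjusted p under 0.05 in a limma fit of the wild-type arrays at all 4 times. Of 260 transcripts at least 4-fold higher in wild-type glands than in larvae at all 4 times, 207, 202 and 203 lay above the array median in the RasV12 arrays, and 212, 215 and 211 in the control arrays. Of 944 transcripts at least 4-fold higher in whole larvae, 113, 120 and 113 lay above the median in RasV12 glands, against 85, 74 and 75 in control glands. The groups did not overlap in either count: RasV12 glands had more larval and slightly fewer gland transcripts above the median. The median percentile of the same sets did overlap. For the larval set it was 28.2, 30.3 and 27.3 in RasV12 glands and 28.4, 28.1 and 27.2 in control glands. For the gland set it was 68.7, 67.8 and 66.5 in RasV12 glands and 68.3, 68.0 and 67.9 in control glands. The larval counts at 18 h overlapped, with 118, 81 and 117 in RasV12 glands and 107, 146 and 95 in control glands. The gland counts at 18 h did not, with 205, 206 and 202 in RasV12 glands and 215, 209 and 214 in control glands. Torso-RNAi glands at 8 h lay further from control glands in both counts, with 140, 124 and 166 larval and 192, 191 and 184 gland transcripts above the median. The part of other tissue in the results was not tested. In bulk samples, fewer cells of a type and less RNA per cell cannot be told apart.

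**Figure D1:**
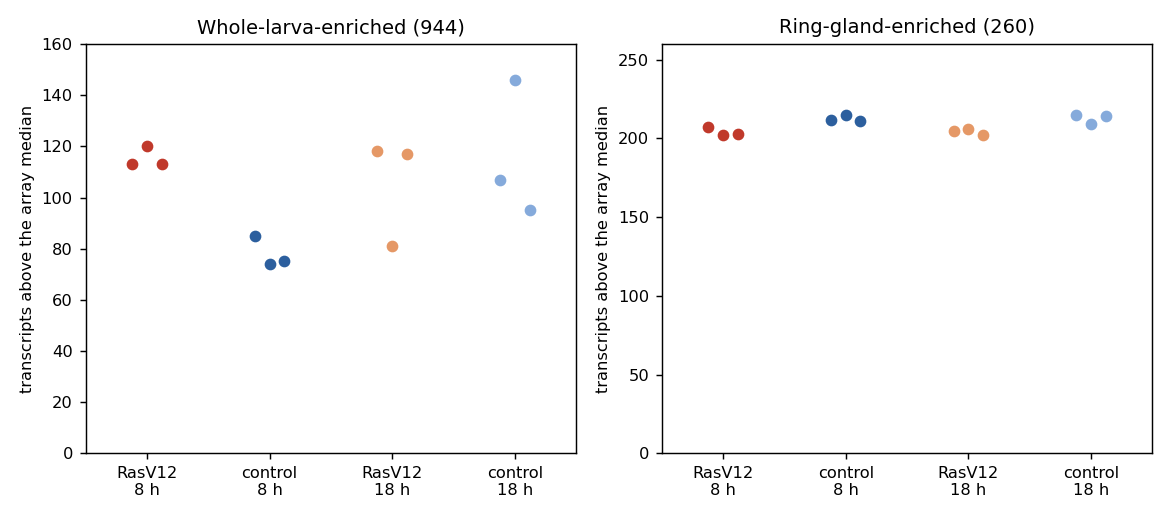
The number of whole-larva-enriched (left, of 944) and ring-gland-enriched (right, of 260) transcripts above the median intensity of each array, for RasV12 and control glands at 8 h and at 18 h. Each point is 1 array; at 8 h the larval counts were 113 to 120 in RasV12 glands and 74 to 85 in control glands.

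A large share of the gland's transcripts differed between RasV12 and control glands. Of 16637 transcripts, 7037 differed from control glands at an adjusted p under 0.05 in limma, which is 42.3% of those tested. Of these, 3331 (20%) were higher and 3706 (22.3%) lower in RasV12 glands. The RasV12 and control arrays did not overlap for 3254 of the 3331 transcripts and for 3631 of the 3706. Over all transcripts tested, 9188 (55.2%) had no overlap. The median log2 change of all transcripts was 0.01.

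Most called changes were small, and at minimum changes of 1.5-fold, 2-fold and 4-fold falls outnumbered rises. At least a 2-fold change was found for 809 transcripts higher in RasV12 glands (4.86% of those tested) and for 1430 lower (8.6%). At 1.5-fold the counts were 1719 higher and 2432 lower. At 4-fold, 234 were higher and 302 lower. From 8-fold on, rises outnumbered falls: 102 were at least 8-fold higher and 67 lower, and 38 were at least 16-fold higher and 16 lower. At 64-fold, 8 were higher and 3 lower.

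The direction also varied with the level in control glands. Among the 4 equal groups of transcripts ordered by their mean control intensity, the lowest (1.94 to 20.8) had 449 transcripts called higher (10.8%) and 115 called lower (2.77%). The next group (20.9 to 388) had 633 higher (15.2%) and 1169 lower (28.1%), and it held the most changes of at least 2-fold, with 342 higher and 741 lower. In the following group (388 to 2436) 1146 were higher and 1320 lower. In the highest (2437 to 38042) 1103 were higher and 1102 lower, of which 36 and 219 changed at least 2-fold. Falls were therefore the more frequent large change among transcripts at high intensity, and rises among those close to the array floor, where intensities of 1.87 to 1.98 were the lowest of an array. The control mean both set the group and entered the change, so the counts are a description. The median SE of a log2 change was 0.28 in the lowest group and 0.09 in the highest.

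**Figure D2:**
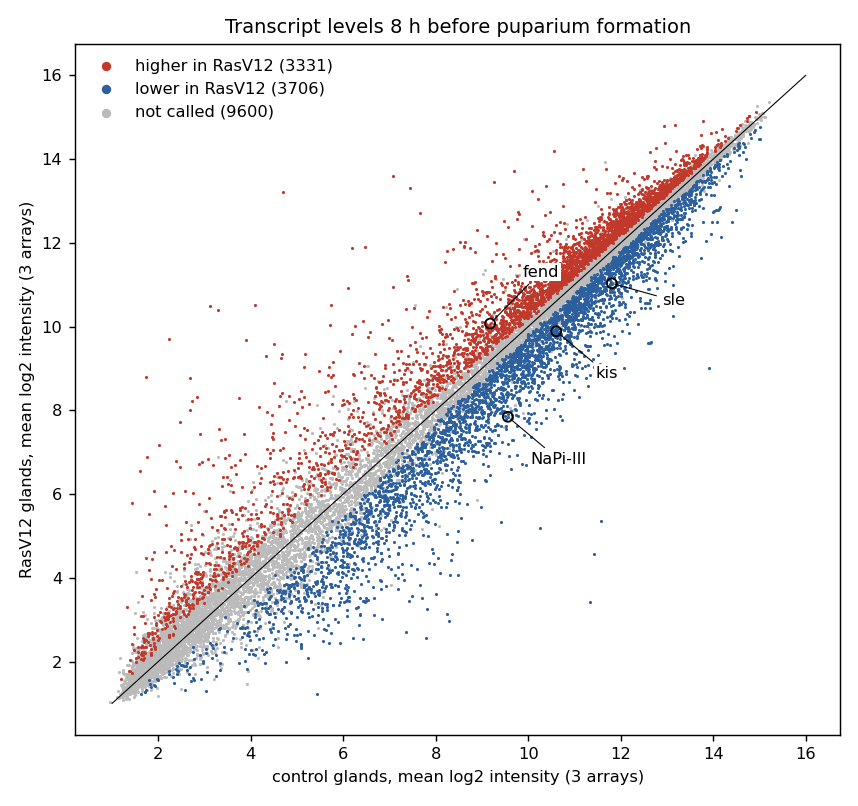
Mean log2 intensity of each of 16637 transcripts in RasV12 glands (vertical, 3 arrays) against control glands (horizontal, 3 arrays) at 8 h. Red points are the 3331 transcripts called higher in RasV12 glands, blue points the 3706 called lower, and grey points those not called; circles mark 4 named genes.

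A few transcripts were very dim in one group and bright in the other. With no detection call at hand, these were taken as transcripts at or below the 25th percentile of every array in one group and above the median of every array in the other, a rule chosen after the values had been seen. There were 4 such transcripts that were dim in control glands and bright in RasV12 glands, and 1 the other way. None of the 5 could be paired with a gene name. The rule and the 8 h test used the same arrays, so the 8 h adjusted p-values of these 5 are no separate support.

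FBtr0082093 gave the steadiest contrast of these. Its intensity was 476, 441 and 425 in RasV12 glands, against 2.49, 3.37 and 4.35 in control glands. The control values lay near the array floor, so the fitted ratio of 135-fold (log2 change 7.07 ± 0.18, SE, adjusted p = 1.4e-11) depends on that floor, and with 32 added to every intensity it was 13.5-fold. At 18 h the transcript had 422, 464 and 391 in RasV12 glands and 2.66, 2.66 and 2.46 in control glands. The level in RasV12 glands was thus almost equal at both times. In wild-type w1118 animals its percentile within the array was at most 3.18 in the 12 gland arrays and at most 0.995 in the 12 larva arrays.

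FBtr0071716 had intensities of 1366, 1243 and 1767 in RasV12 glands, against 8.00, 7.85 and 10.6 in control glands. The ratio was 165-fold (log2 7.37 ± 0.18, SE, adjusted p = 1.4e-11) and 36.2-fold with 32 added. Wild-type glands also held little of it, between percentiles 8.42 and 16.5, while whole larvae ran between 31.3 and 79.6. At 18 h its RasV12 values were higher still, at 3202, 2223 and 2778, against 7.12, 6.51 and 7.45 in control glands. The change at 8 h was smaller than that at 18 h by 1.22 on the log2 scale (adjusted p = 0.014, limma interaction).

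The other two dim-to-bright transcripts varied more in wild-type glands. FBtr0079500 had 766, 1098 and 2861 in RasV12 glands and 11.1, 4.96 and 17.3 in control glands (136-fold, adjusted p = 2.8e-07). FBtr0114508 had 1670, 1100 and 1669 in RasV12 glands and 16.8, 17.1 and 17.1 in control glands (85.5-fold, adjusted p = 4.9e-07). With 32 added the ratios were 32.1-fold and 30.3-fold. Both were read across a wide range in the 12 wild-type gland arrays, between percentiles 29.6 and 91.9 for FBtr0079500 and 23.5 and 75.6 for FBtr0114508. This range pools 4 ages. FBtr0079500 averaged 2914, 260, 89.9 and 76.5 in wild-type glands at 4, 8, 24 and 36 h into the third instar. Its 4 h arrays alone ran from 273 to 7385. FBtr0114508 averaged 1326, 1384, 122 and 65.6 at the same ages. All 4 transcripts were called higher in RasV12 glands at 18 h too.

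FBtr0113863 ran the opposite way and was the largest fall of all. Its intensity was 11.5, 6.0 and 17.9 in RasV12 glands, against 2396, 2952 and 2488 in control glands. RasV12 glands were 243-fold lower (log2 -7.92 ± 0.53, SE, adjusted p = 2.5e-07), or 60.5-fold lower with 32 added. At 18 h it had 21.5, 54.3 and 18.0 in RasV12 glands and 2255, 2646 and 2512 in control glands. Torso-RNAi glands at 8 h were as dim as RasV12 glands, with 10.4, 2.75 and 6.38. The same transcript was thus low in both driver crosses that carried a transgene and high in the control cross. In wild-type animals it lay between percentiles 54.3 and 70 in glands and between 7.49 and 24.9 in larvae, which makes it 1 of the 260 gland transcripts.

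The transcripts with the largest fitted rises had large SEs in the fit, which pools the spread of all 6 groups. FBtr0076196 had 7782, 10231 and 10521 in RasV12 glands and 28.5, 17.2 and 34.7 in control glands. The log2 change was 8.52 ± 1.67 (SE, adjusted p = 0.0010), a ratio of 366-fold, or 162-fold with 32 added. The groups lay far apart at 8 h, but at 18 h 1 RasV12 array left the others, with 16157, 14916 and 134 in RasV12 glands and 13.3, 18.5 and 7.55 in control glands. Torso-RNAi glands at 8 h split the same way, with 5210, 3970 and 72.6.

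FBtr0071920 had 4711, 46.9 and 2602 in RasV12 glands and 4.91, 3.73 and 5.65 in control glands. The ratio was 177-fold (log2 7.47 ± 2.03, SE, adjusted p = 0.0088), and RasV12 replicate 2 lay far below the other two. Leaving that array out gave 745-fold, and leaving out RasV12 replicate 1 gave 74.4-fold. With 32 added to every intensity the ratio was 27.1-fold. The RasV12 arrays spread more widely still at 18 h, with 6534, 271 and 5.47 in RasV12 glands and 3.52, 4.38 and 3.90 in control glands. In wild-type glands the percentile of FBtr0071920 ran from 20.3 to 84.5 at 24 h and from 12.0 to 79.2 at 36 h. It ran from 24.3 to 37.7 at 4 h and from 17.2 to 25.4 at 8 h into the third instar. Among the 809 transcripts at least 2-fold higher, 12 spanned more than 10-fold among the 3 RasV12 arrays, and 1 among the 3 control arrays. Over all transcripts 107 did so among the RasV12 arrays and 52 among the control arrays, and of the 1430 at least 2-fold lower 4 did so among the RasV12 and 1 among the control arrays.

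FBtr0083389 was the next largest fall without overlap between the groups, and there 1 control array stood apart. It had 20.1, 9.81 and 67.4 in RasV12 glands and 8131, 7747 and 332 in control glands. RasV12 glands were 116-fold lower (log2 -6.86 ± 1.15, SE, adjusted p = 0.00029), or 47.4-fold lower with 32 added. The ratio was 335-fold lower without control replicate 3 and 67.6-fold lower without control replicate 1. At 18 h the fall was not called (log2 -2.57, adjusted p = 0.085), with 39.6, 88.7 and 182 in RasV12 glands and 212, 1159 and 544 in control glands. The difference between the times was not called either (log2 -4.29, adjusted p = 0.13, limma interaction). Torso-RNAi glands at 8 h were low too, with 98.8, 25.7 and 19.6 (log2 -6.23 against control glands, adjusted p = 0.00067 in limma).

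**Figure D3:**
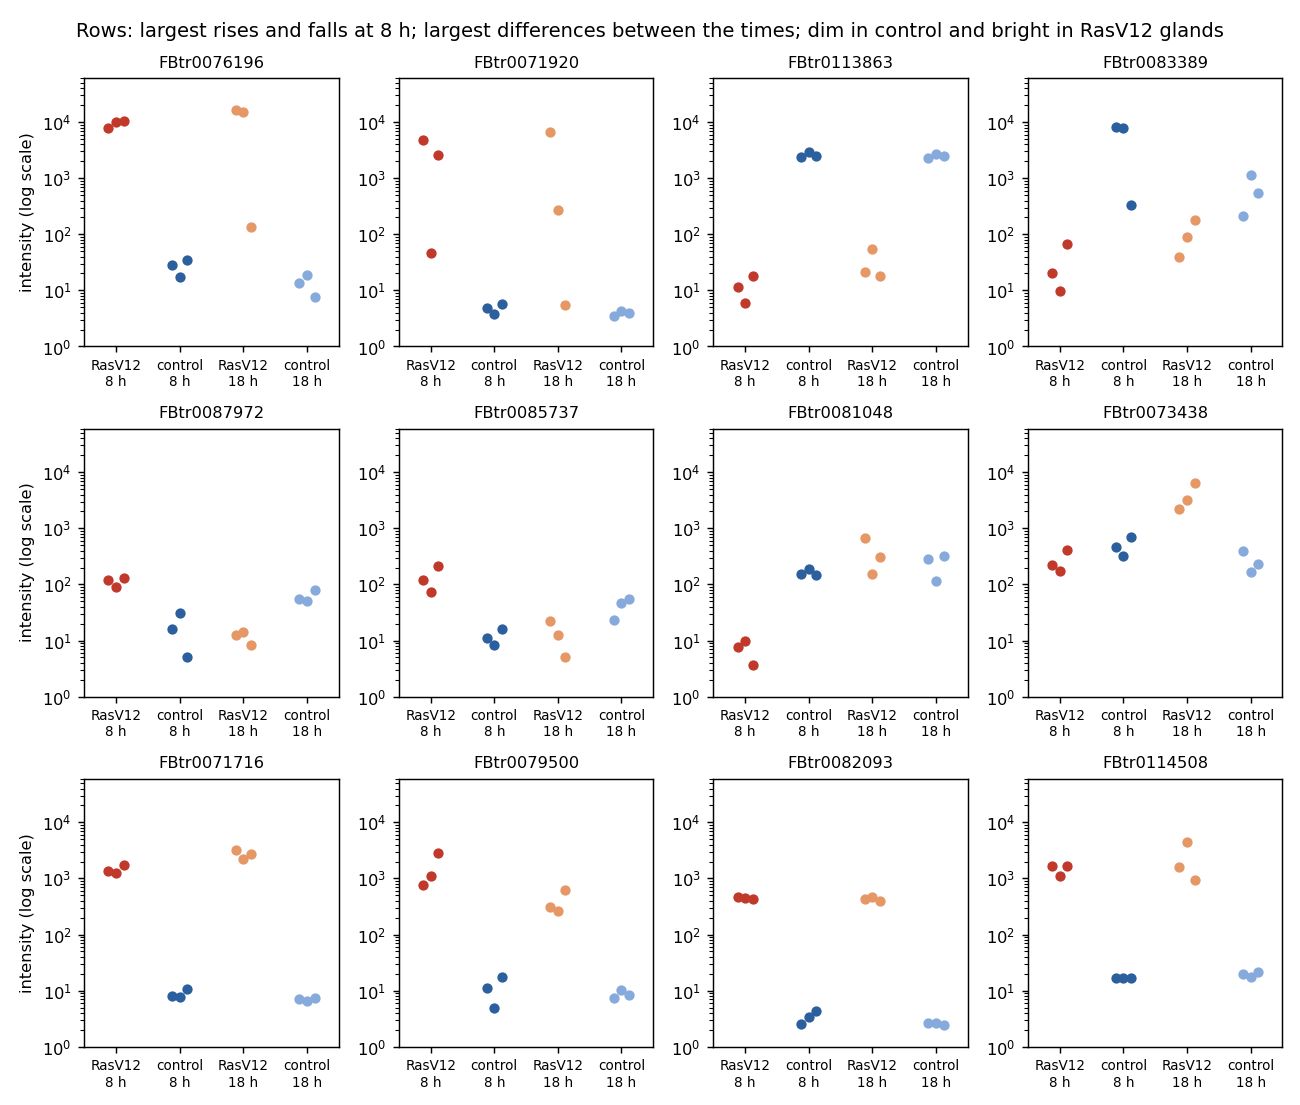
Intensity (log scale) in each array of RasV12 and control glands at 8 h and 18 h for 12 transcripts. The top row holds the largest rises and falls at 8 h, the middle row the largest differences between the 8 h and 18 h changes, and the bottom row the 4 transcripts dim in control and bright in RasV12 glands, such as FBtr0082093 with 425 to 476 in RasV12 and 2.49 to 4.35 in control glands.

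Most of the 16 transcripts that could be named were lower in RasV12 glands. A reference gene table held 44 of the transcript identifiers, of which 16 belonged to 1 gene; all 16 are described, without regard to their values. Of the 16, 2 were called higher and 10 lower, and 4 were not called, beside 20% higher and 22.3% lower over all transcripts. Their median log2 change was -0.30, against 0.01 over all, with a range of -1.71 to 0.90. Of the 28 identifiers that matched several genes, 4 were called higher, 8 lower and 16 not called, with a median of -0.15. The groups did not overlap for 14 of the 16, beside 55.2% of all transcripts. Of 20 lists of genes for ring gland biology, 11 had no named member on the array. Among them were ecdysone synthesis, Torso and Ras signalling, juvenile hormone synthesis, and the markers of corpora cardiaca, fat body, hemocytes, muscle, trachea and salivary gland. The lists were chosen with earlier results of these data known, so the counts by list below are a description.

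Both measured carriers of solutes and lipids fell, of 9 genes in that list, beside 22.3% called lower over all transcripts. NaPi-III, a sodium-dependent phosphate transporter, had 202, 274 and 219 in RasV12 glands, against 752, 789 and 724 in control glands. It showed the largest change of the 16, 3.28-fold lower (log2 -1.71 ± 0.19, SE, adjusted p = 1.1e-05), and the groups lay far apart. At 18 h it had 371, 422 and 390 in RasV12 glands and 1093, 1913 and 990 in control glands, a change of -1.70. Fatp1, a fatty acid transport protein, had 2487, 2398 and 2482 in RasV12 glands, against 4025, 3351 and 3093 in control glands (log2 -0.50 ± 0.16, SE, adjusted p = 0.020). The control arrays spread widely for Fatp1 while the RasV12 arrays were nearly equal. The call for Fatp1 was lost without control replicate 1 (log2 -0.39, adjusted p = 0.092) or RasV12 replicate 2 (-0.48, adjusted p = 0.055).

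Of the 4 measured chromatin genes of 13 listed, 3 fell and 1 was not called, with a median log2 change of -0.28. Over all transcripts 22.3% were called lower, and the median log2 change was 0.01. kis encodes kismet, a chromodomain ATPase of the trithorax group. It had 927, 1007 and 912 in RasV12 glands and 1508, 1798 and 1393 in control glands (log2 -0.72 ± 0.12, SE, adjusted p = 0.00024). The fall in kis was the largest of the 4, and its 18 h change was -1.09. HDAC3, a histone deacetylase, had 3892, 4128 and 4174 in RasV12 glands and 4728, 4688 and 5022 in control glands (log2 -0.24 ± 0.05, SE, adjusted p = 0.0026).

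SuUR, which holds back replication in heterochromatin of polytene chromosomes, had 568, 524 and 514 in RasV12 glands and 691, 675 and 619 in control glands (log2 -0.31 ± 0.07, SE, adjusted p = 0.0034). It is the single named member of 17 cell cycle and endoreplication genes as well. Its 18 h change was -0.05 (adjusted p = 0.63), and the difference between the times was not called (adjusted p = 0.14). His4r, a replacement histone H4, was not called at 8 h (log2 -0.08, adjusted p = 0.28). It had 17360, 16837 and 16699 in RasV12 glands and 17540, 17748 and 18577 in control glands. At 18 h His4r was called lower (log2 -0.17, adjusted p = 0.027), and the difference between the times was not called (adjusted p = 0.58).

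A nucleolar and a pair of structural genes fell, each the single named member of its list. sle (slender lobes), a nucleolar protein, had 2083, 2195 and 2014 in RasV12 glands, against 3429, 3573 and 3762 in control glands. The fall was 1.71-fold (log2 -0.77 ± 0.11, SE, adjusted p = 8.1e-05), well beyond the spread of either group, and the 18 h change was -1.22. LanA, the laminin alpha chain of basement membranes, had 10794, 10476 and 9259 in RasV12 glands and 13704, 14221 and 14371 in control glands (log2 -0.47 ± 0.07, SE, adjusted p = 0.00011). alpha-Spec, the alpha spectrin of the cortical membrane skeleton, had 1276, 1283 and 1366 in RasV12 glands and 1723, 1862 and 1812 in control glands (log2 -0.46 ± 0.07, SE, adjusted p = 0.00020). Both structural genes were lower in every RasV12 array than in any control array. At 18 h LanA changed by -0.58 and was called, while alpha-Spec changed by -0.15 and was not (adjusted p = 0.12); the difference between the times for alpha-Spec was -0.31 (adjusted p = 0.084).

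The ubiquitin pathway's 2 named genes of 8 listed moved in opposite directions. Uba1, the ubiquitin-activating enzyme, had 9397, 9837 and 9209 in RasV12 glands and 11834, 12279 and 10938 in control glands (log2 -0.30 ± 0.07, SE, adjusted p = 0.0042). rdx (roadkill), a substrate adaptor of a Cul3 ubiquitin ligase that acts on the Hedgehog effector Ci, had 11707, 10847 and 10730 in RasV12 glands and 9343, 9483 and 8687 in control glands (log2 0.27 ± 0.07, SE, adjusted p = 0.0041). The rise in rdx was small, and the groups did not overlap.

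fend (forked end), known for a role in motor axon guidance, was the other gene called higher and the single named neuron marker of 8 listed. It had 1206, 1192 and 867 in RasV12 glands and 593, 510 and 640 in control glands (log2 0.90 ± 0.26, SE, adjusted p = 0.014). The 3 RasV12 arrays lay above the control arrays but spread more. The adjusted p rose to 0.054 without control replicate 2 (log2 0.80) and to 0.052 without RasV12 replicate 1 (log2 0.81). At 18 h fend was not called (log2 0.51, adjusted p = 0.14), with 456, 1093 and 699 in RasV12 glands and 481, 585 and 430 in control glands.

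Both named genes of the 17 in growth, insulin and TOR signalling were not called. mio and Wdr24 encode subunits of GATOR2, which activates TORC1 when amino acids are ample. mio had 698, 702 and 719 in RasV12 glands and 737, 689 and 756 in control glands, which overlap (log2 -0.04 ± 0.12, SE, adjusted p = 0.81). Wdr24 had 676, 706 and 690 in RasV12 glands and 727, 723 and 788 in control glands (log2 -0.11 ± 0.10, SE, adjusted p = 0.40). Of 2 further genes without a role given here, CG16974 was lower, with 3247, 2939 and 3249 in RasV12 glands and 3933, 4147 and 3701 in control glands (log2 -0.32 ± 0.08, SE, adjusted p = 0.0068). CG31178 was close to the array floor, with 3.27, 3.23 and 3.76 in RasV12 glands and 3.62, 5.26 and 3.79 in control glands, and was not called (adjusted p = 0.19).

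**Figure D4:**
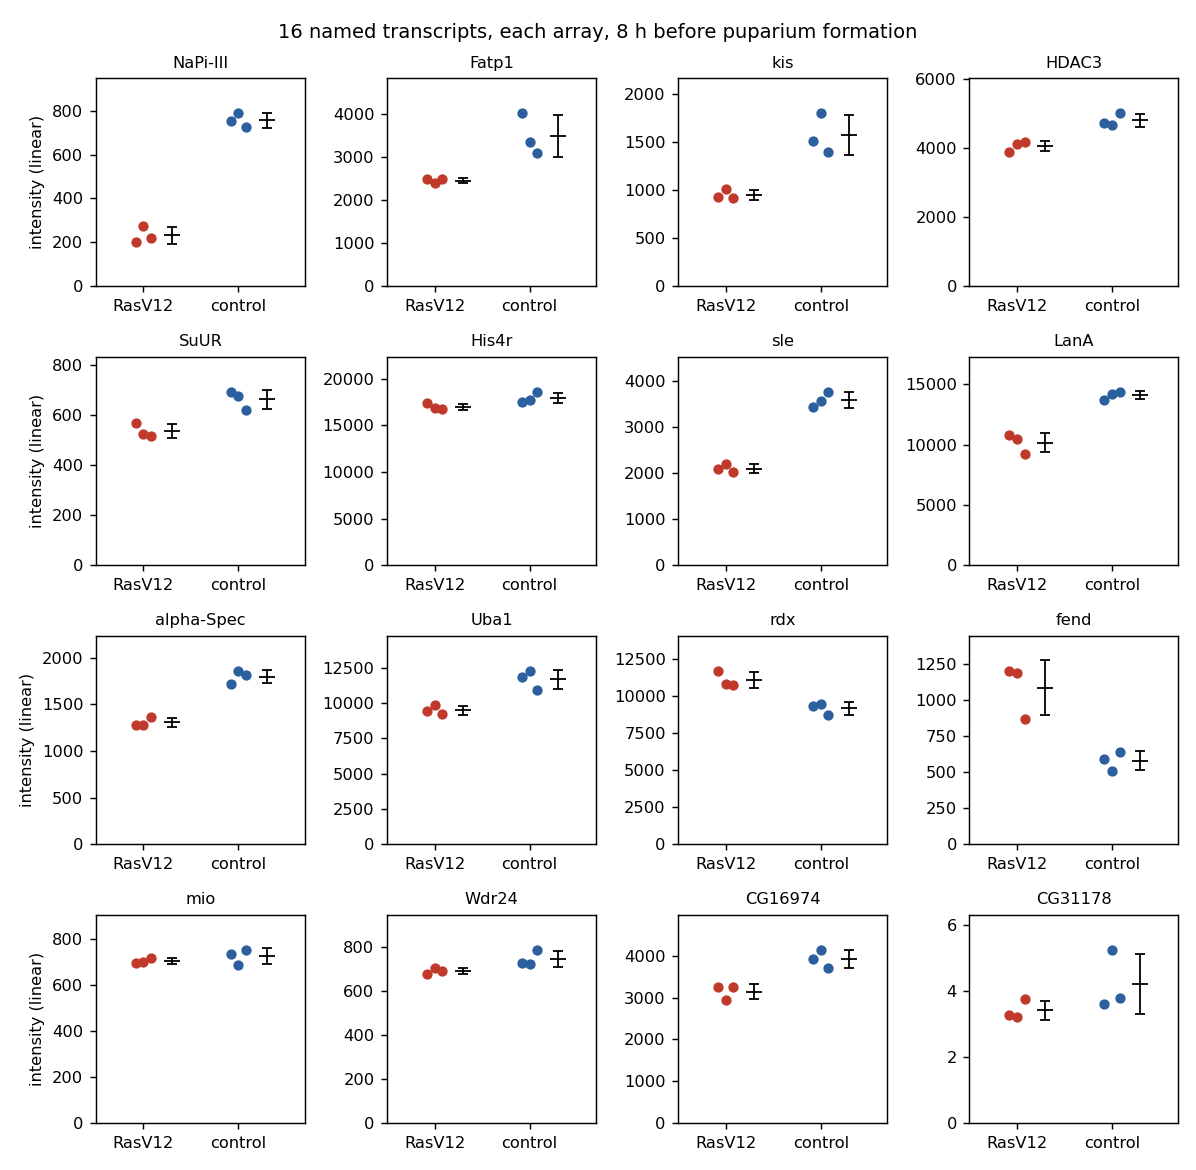
Intensity (linear) of the 16 named transcripts in each RasV12 and control array at 8 h, with the mean and SD of 3 arrays beside the points. NaPi-III, at 202 to 274 in RasV12 glands and 724 to 789 in control glands, has the largest ratio between the groups; fend and rdx are higher in RasV12 glands.

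Torso-RNAi glands, in which the receptor above Ras is knocked down, were set beside RasV12 glands at 8 h. Both crosses are compared with the same 3 control arrays, so their changes from control are given side by side and their likeness is not tested. Torso-RNAi glands differed from control glands in 6505 transcripts (39.1%). Between RasV12 and torso-RNAi glands 8461 transcripts differed (50.9% of those tested), 4823 higher and 3638 lower in RasV12 glands. Of the 16 named genes, 6 were higher and 5 lower in RasV12 than in torso-RNAi glands. NaPi-III had 202, 274 and 219 in RasV12 glands, against 1371, 1596 and 1367 in torso-RNAi glands, a log2 difference of -2.65 ± 0.19 (SE, adjusted p = 1.4e-07). Against control glands, NaPi-III changed by -1.71 in RasV12 and by 0.93 in torso-RNAi glands.

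For several genes the torso-RNAi change was the larger loss. kis changed by -0.72 in RasV12 and by -1.18 in torso-RNAi glands, and LanA by -0.47 in RasV12 and by -0.80 in torso-RNAi glands. SuUR changed by -0.31 in RasV12 and by -0.62 in torso-RNAi glands, and CG16974 by -0.32 in RasV12 and by -0.87 in torso-RNAi glands. These 4 were called higher in RasV12 than in torso-RNAi glands, with log2 differences of 0.47 for kis, 0.33 for LanA, 0.31 for SuUR and 0.55 for CG16974. The genes kis, LanA, SuUR and CG16974 were thus lower than control in both crosses and lowest in torso-RNAi glands. sle changed by -0.77 in RasV12 and by -0.61 in torso-RNAi glands, which did not differ past the threshold. fend and rdx were higher in RasV12 than in torso-RNAi glands, by 0.86 and 0.18. HDAC3, His4r, alpha-Spec and Fatp1 were lower, by -0.28, -0.39, -0.33 and -0.42. Against control glands, His4r was called higher in torso-RNAi glands (log2 0.31, adjusted p = 0.00066 in limma) and was not called in RasV12 glands (-0.08). HDAC3, alpha-Spec and Fatp1 were not called in torso-RNAi against control glands.

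The RasV12 change at 8 h was next set against that at 18 h, which rests on 3 other RasV12 and 3 other control arrays. Over 16637 transcripts, which do not vary independently, the 8 h and 18 h log2 changes had a correlation of r = 0.6774, and 75.5% shared their sign. At 18 h, 7402 transcripts (44.5% of those tested) were called, 3800 higher and 3602 lower. Of the 809 transcripts at least 2-fold higher at 8 h, 486 were called higher and 27 lower at 18 h. Of the 1430 at least 2-fold lower, 1070 were called lower and 17 higher at 18 h. In all, 2225 were called higher and 2442 lower at both times, while 60 switched to lower and 111 to higher at 18 h. A further 1046 rises and 1153 falls passed at 8 h and did not pass at 18 h, which by itself does not show a difference between the times.

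The difference between the times was tested in the same limma fit, and 1245 transcripts (7.48% of those tested) passed, 465 with a more positive and 780 with a more negative change at 8 h. At an unadjusted p under 0.05 there were 3868. The change was larger in size at 8 h for 615 of the 1245 and at 18 h for 630. The level in RasV12 glands moved more between the times than that in control glands for 366 of the 465 and for 663 of the 780. The count of 1245 fell to 703 without control replicate 3 at 8 h, to 726 without control replicate 2 at 18 h and to 815 without RasV12 replicate 1 at 8 h.

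Of the 16 named genes, rdx was the one whose change differed between the times. At 18 h rdx had 8503, 7819 and 7865 in RasV12 glands and 9266, 9541 and 8794 in control glands, a fall (log2 -0.19, adjusted p = 0.030) where 8 h showed a rise. The difference was 0.47 ± 0.09 (SE, adjusted p = 0.010). Control glands had nearly the same rdx level at both times, averaging 9171 ± 425 at 8 h and 9201 ± 378 at 18 h (SD, n = 3 each), while RasV12 glands averaged 11094 ± 533 at 8 h and 8062 ± 382 at 18 h. For the other 15 genes the difference was not called.

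The largest differences towards a rise at 8 h were in transcripts of low intensity. FBtr0087972 had 121, 91.1 and 128 in RasV12 glands and 16.1, 30.6 and 5.18 in control glands at 8 h. At 18 h it had 12.3, 14.5 and 8.47 in RasV12 glands and 54.0, 49.9 and 79.7 in control glands. It was thus called higher at 8 h (log2 3.04) and lower at 18 h (-2.38), with a difference of 5.42 ± 0.90 (SE, adjusted p = 0.0036), or 2.66 with 32 added. FBtr0085737 had 118, 71.8 and 217 in RasV12 glands and 11.3, 8.41 and 16.1 in control glands at 8 h. At 18 h it had 22.1, 12.8 and 5.04 in RasV12 glands and 23.3, 46.4 and 54.5 in control glands. Its difference was 5.20 ± 1.06 (SE, adjusted p = 0.011), or 2.53 with 32 added.

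In the other direction, FBtr0073438 rose in RasV12 glands at 18 h and was not called at 8 h. At 8 h it had 225, 175 and 414 in RasV12 glands and 456, 325 and 713 in control glands (log2 -0.90, adjusted p = 0.18). At 18 h it had 2172, 3250 and 6538 in RasV12 glands and 393, 166 and 231 in control glands (log2 3.86), a difference of -4.76 ± 0.72 (SE, adjusted p = 0.0023). The 18 h RasV12 arrays alone stood above the rest for FBtr0073438. FBtr0081048 had 7.61, 9.73 and 3.68 in RasV12 glands and 153, 192 and 150 in control glands at 8 h. At 18 h it had 684, 152 and 314 in RasV12 glands and 280, 113 and 327 in control glands. Its difference was -5.21 ± 1.33 (SE, adjusted p = 0.031). The call was lost in 9 of the fits that left out 1 array, with an adjusted p of up to 0.080. It was also lost with 32 added (-2.83, adjusted p = 0.083). In wild-type w1118 animals at the 4 times, FBtr0081048 averaged 9120 to 14261 in whole larvae and 473 to 1612 in glands. FBtr0073438 went the other way, with 182 to 318 in whole larvae and 507 to 3129 in glands. A part of other tissue was not tested here either.

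**Figure D5:**
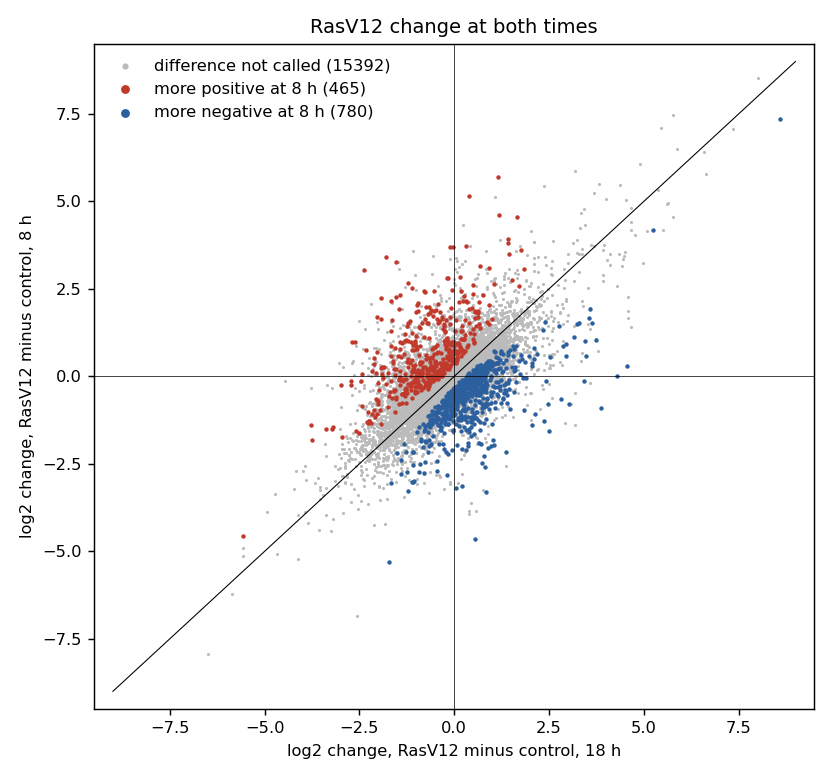
Log2 change, RasV12 minus control, at 8 h (vertical) against 18 h (horizontal) for each of 16637 transcripts, with the line of equal change. Red points mark the 465 transcripts whose change was more positive at 8 h, blue points the 780 whose change was more negative, by the test of the difference.

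The wild-type series gave a last view of the changed transcripts, by properties that the RasV12 arrays did not set. Over all transcripts, 1.56% were enriched in glands over larvae and 5.67% in larvae over glands. Of the 809 transcripts at least 2-fold higher in RasV12 glands, 19 (2.35%) were gland-enriched and 99 (12.2%) larva-enriched. Of the 1430 at least 2-fold lower, 52 (3.64%) were gland-enriched and 91 (6.36%) larva-enriched. Among all called transcripts the larval share was instead below that over all, at 3.66% of the 3331 higher and 2.91% of the 3706 lower, while the gland share was 2.1% of the higher and 2.4% of the lower. Seen from the wild-type lists, 7.31% of the 260 gland-enriched transcripts were at least 2-fold higher in RasV12 glands and 20% at least 2-fold lower. Of the 944 larva-enriched transcripts, 10.5% were higher and 9.64% lower. Without the larva-enriched transcripts, 710 of the 809 and 1339 of the 1430 remained.

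Wild-type glands were also compared between 36 h and 4 h into the third instar, with limma. At an adjusted p under 0.05, 873 transcripts (5.25%) were at least 2-fold higher at 36 h and 1178 (7.08%) at least 2-fold lower. Of the 809 transcripts higher in RasV12 glands, 123 (15.2%) were among those that gained with age and 109 (13.5%) among those that lost. Of the 1430 lower, 121 (8.46%) gained with age and 207 (14.5%) lost. At this 2-fold minimum both shares lay above those over all transcripts. Without it this did not hold throughout: of the 3331 called higher 8.11% gained with age and 4.29% lost, and of the 3706 called lower 5.4% gained and 7.29% lost. These shares are a description, with no test.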

How the data were processed

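RNA was measured in 42 samples on one-colour arrays. The deposited intensity values are linear. Per the submitters' processing notes the authors used RMA. Its version, the background settings, the probe annotation and the genome build were not given in the sources used here. Driver-cross and wild-type arrays looked normalized apart and were not tested against each other.

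The 6 arrays compared were chosen by their source descriptions. Intensities were taken to log2 with no pseudocount. The 18 driver-cross arrays in 6 groups were fitted together with limma 3.58.1 in R 4.3.3 (group means, plain eBayes), with Benjamini-Hochberg adjustment over the 16637 transcripts and a call at an adjusted p under 0.05, 2-sided. The 8 h minus 18 h difference was an interaction contrast. The 24 wild-type arrays were fitted apart with limma. Wild-type enrichment asked for an adjusted p under 0.05 and a 4-fold minimum at all 4 times. The wild-type age sets asked for an adjusted p under 0.05 and a 2-fold minimum. Their shares among the changed transcripts were not tested.

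The RefSeq gene table (Release 6 plus ISO1 MT) held 44 identifiers as synonyms, of which 16 matched 1 gene and 28 several; 16621 transcripts carry no name here. Named were all 16, and by identifier the 2 largest rises and 2 largest falls at 8 h without overlap, and likewise for the difference. The transcripts and lists were chosen with earlier results of these data known. The script was tested on simulated data. Alternatives were second normalizations, filters, a pseudocount, trend and robust options, array weights, a replicate block, the arrays of the contrast alone, and leaving out each array.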

Additional observations from a re-analysis of the deposited data

Results flagged for a closer look

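The RasV12 change differed between 8 h and 18 h, by the interaction test in limma, for 1245 transcripts. Among named genes, rdx had a log2 change that was larger at 8 h by 0.47. Among transcripts known by identifier, the change at 8 h minus that at 18 h was 5.42 for FBtr0087972, 5.20 for FBtr0085737, -5.21 for FBtr0081048 and -4.76 for FBtr0073438. The difference for FBtr0071716 was -1.22; this transcript was chosen after its values had been seen. All of these passed the threshold with 3 arrays a group. Each rests on the 2 times in the source descriptions, while the sample titles give 18 h for both sets.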

How the results depend on the processing

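Of 812 log2 changes and differences of the named transcripts under the alternatives, 795 kept their side of the threshold, 14 lost the call and 3 gained one. The sign turned in 24, all of them not called before or after: mio at 8 h in 1, and in 23 the differences between the times for NaPi-III, HDAC3, Uba1, Wdr24, FBtr0082093 and FBtr0114508. The lost calls were those of fend, Fatp1 and FBtr0081048 given above. The 3 gains were differences between the times for alpha-Spec with 32 added (adjusted p = 0.045), SuUR with array weights (0.045) and sle with the arrays of the contrast alone (0.028). Asking for at least 2-fold left 809 transcripts higher, 1430 lower and 487 differing between the times. Array weights raised the last count to 1995, and the cause was not tested. Leaving out 1 array gave 2758 to 3013 higher, 3181 to 3460 lower and 703 to 1436 differing. A second quantile step gave 3413 higher and 3542 lower, and centring on the median 3266 and 3784. With the replicate block the counts were 3302 higher, 3735 lower and 1255 differing. Same-numbered samples' deviations correlated with r = 0.0495, 0.1445 and 0.0682, so the numbers were not taken as pairs, although each sample correlated best with its own number. The limits are 3 arrays a group, stage labels that differ between the groups, and intensities near the array floor, where a ratio depends on the floor. Few transcripts carry a name here, so the counts cannot be read as pathways.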

Other observations

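The 28 transcript identifiers that matched several genes are not named. At 8 h, 4 of them were called higher and 8 lower in RasV12 glands and 16 were not called, beside 42.3% called over all transcripts, with a median log2 change of -0.15 and a range of -0.63 to 0.56. At 18 h 8 were higher and 5 lower, beside 44.5% called over all. The change differed between the times for 3 of the 28, each more negative at 8 h. Over all transcripts 7.48% differed, 465 with a more positive and 780 with a more negative change at 8 h.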
